A study of Mus musculus with 21 samples.

Results

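Collagen, matrix and mesenchymal genes were followed here as a set of 40 protein-coding genes out of 21887 on chromosomes 1 to 19, X and Y. The set holds 8 fibrillar collagens, 8 basement membrane collagens and laminins, 7 filament, fibril-associated and transmembrane collagens, 5 matrix glycoproteins, 4 proteoglycans, 2 surface proteins and 6 mesenchymal transcription factors. For each library the 100000 summits with the highest scores were kept, and a gene's value was the number of kept summits in its body or within 20 kb of it. A summit is the position inside a peak where the reads of open chromatin pile up highest. The 40 windows form 38 separate loci of 5.98 Mb on 15 chromosomes, because those of Col3a1 and Col5a2 and those of Col4a1 and Col4a2 run into each other. Only the second pair shares summits, 30 over the 21 libraries.

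Open chromatin was mapped with Omni-ATAC, in which a transposase cuts accessible DNA, in 7 groups of 3 mouse libraries. GNP, granule neuron progenitors, came from postnatal day 7 cerebella and hyperplasia from postnatal day 28 cerebella, both with the Atoh1-EGFP reporter, which marks granule progenitors through the Atoh1 promoter. Tumor cells came from tumor-bearing cerebella at an age the labels do not list, and cells of all 3 groups were sorted for EGFP. The GNP titles carry the prefix Ptch1, and no label used here gives the genotype of the primary groups. VDR is described as a medulloblastoma line of mouse and was left untreated or given siNC (a control siRNA), siNfia or siNfib, the last 2 aimed at the transcription factors Nfia and Nfib. The file names begin with sh where the labels say siRNA, so the reagent is uncertain, and summit lists do not show how far the targets were reduced. Nothing in the labels says that replicates were separate animals or cultures, so p-values measure the spread between these libraries, which may be technical. Stage goes with age in the primary groups, and VDR is 1 line, so its differences from tumor cannot be told apart from culture or the origin of the line.

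Fibrillar collagens form the tensile fibres of connective tissue, and type IV collagens with laminins form the sheet-like basement membranes that line the pial surface and the vessels of the brain. Proteoglycans such as versican and brevican fill the loose matrix of brain tissue, where fibrillar collagen is scarce outside meninges and vessels. Twist, Prrx, Snai and Zeb proteins are transcription factors of mesenchymal cells, and Zeb proteins are also made by neural progenitors.

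Read depth is unknown, since only summits and scores were used here. The lists held 159720 to 279584 summits. The score at the 100000th rank was 3.76 to 3.97 in untreated VDR cells and 4.95 to 28.9 in the other 6 groups, and only 11433 to 17335 untreated VDR summits scored 10 or more against 40587 to 164171 elsewhere. The kept lists of untreated VDR cells thus hold many weak summits, and siNC cells are the main reference for the line here. In bulk samples fewer cells with an open site and less opening per cell cannot be told apart.

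Kept summits in the 38 loci numbered 322 ± 7.94 for GNP, 342 ± 12.1 for hyperplasia, 354 ± 12.1 for tumor and 365 ± 9.29 for VDR cells without treatment (SD, n = 3 libraries here and below). They numbered 335 ± 15.4 with siNC, 336 ± 9.17 with siNfia and 298 ± 4.58 with siNfib. All groups thus gave about the same share of their kept summits to these loci, 0.298% to 0.365%, while single genes moved far more. Between 62.8% and 74.3% of a library's summits in the set lay inside gene bodies. Per 100 kb of window the densest loci over the 21 libraries were Col27a1 with 31.4 summits, Bcan with 28.7 and Fbln2 with 28.5. The sparsest were Col5a2 with 0.338 and Dcn with 0.242. Col27a1 codes for a fibrillar collagen of cartilage and Dcn for decorin, a proteoglycan that binds collagen fibres.

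**Figure D1:**
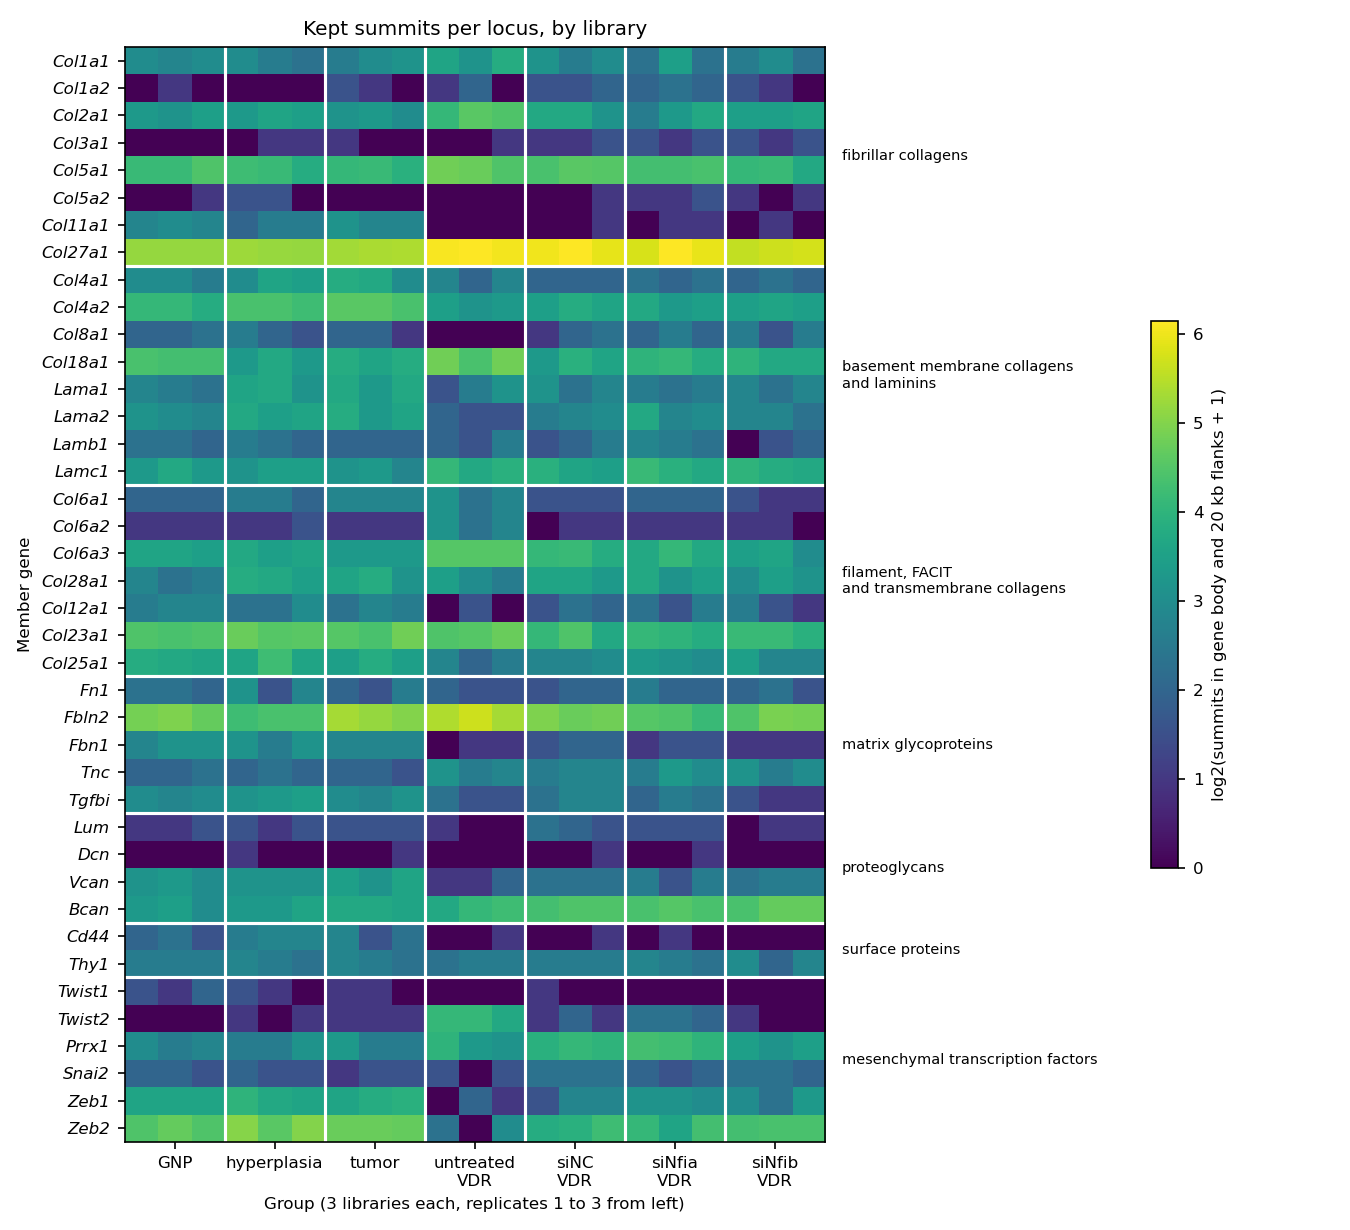
Each row is a gene of the set and each column a library, with colour giving log2 of the kept summits in the gene body and 20 kb flanks plus 1. Col11a1 and Cd44 hold at most 1 summit in each of the 12 VDR libraries, Col27a1 holds 35 to 70 in all 21, and Twist2 is brightest in untreated VDR cells.

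The plainest pattern lay at gene starts. A start counted as occupied in a library when a kept summit lay within 500 bp of it, and 28 of the 40 genes have a listed start in RefSeq. In the primary groups 16 to 19 of the 28 were occupied in each library, or 57.1% to 67.9%, against 56.2% to 58.9% of all genes with a listed start. In VDR cells 5 to 10 were occupied, or 17.9% to 35.7%, while all genes stayed at 42.9% to 52.5%. No VDR library overlapped a primary library in this share. Counting any summit of the whole lists, which was added after the data had been seen, gave 78.6% to 92.9% in primary libraries and 28.6% to 42.9% in VDR libraries, against 62.1% to 66.1% and 47.9% to 58.5% of all genes. These shares are a description, since the set was chosen with results of these data known.

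Starts that held a kept summit in most primary libraries and in few or none of the line belong to genes of several roles. The starts of Fbn1 (fibrillin-1, the scaffold of elastic microfibrils) and Vcan (versican) held a kept summit in 9 of 9 primary libraries. Fbn1 had none in 12 VDR libraries, and Vcan had 1, in siNC replicate 1. The start of Col11a1, a fibrillar collagen of cartilage, was occupied in 9 of 9 primary libraries and in 3 of 12 VDR libraries. Cd44, the hyaluronan receptor, was occupied in 8 of 9 and 1 of 12. Col18a1, whose C-terminal fragment is endostatin, Fbln2, Prrx1 and Tgfbi were occupied at a start in 5 to 9 of the 9 primary libraries, and in the line only Col18a1 was, in 1 library. In the whole lists a summit stood at the Cd44 start in 8 of 12 VDR libraries and at the Col11a1 start in 6 of 12, all of treated cells. These include the 1 library with a kept summit at Cd44 and the 3 at Col11a1. In the rest of them the start fell below the kept ranks. Fbn1 and Prrx1 had none in 12. Bcan (brevican) went the other way, with 5 of 9 primary and 12 of 12 VDR libraries in the kept lists and 21 of 21 in the whole lists, and Col5a1, which nucleates collagen fibrils, was occupied in 21 of 21.

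**Figure D2:**
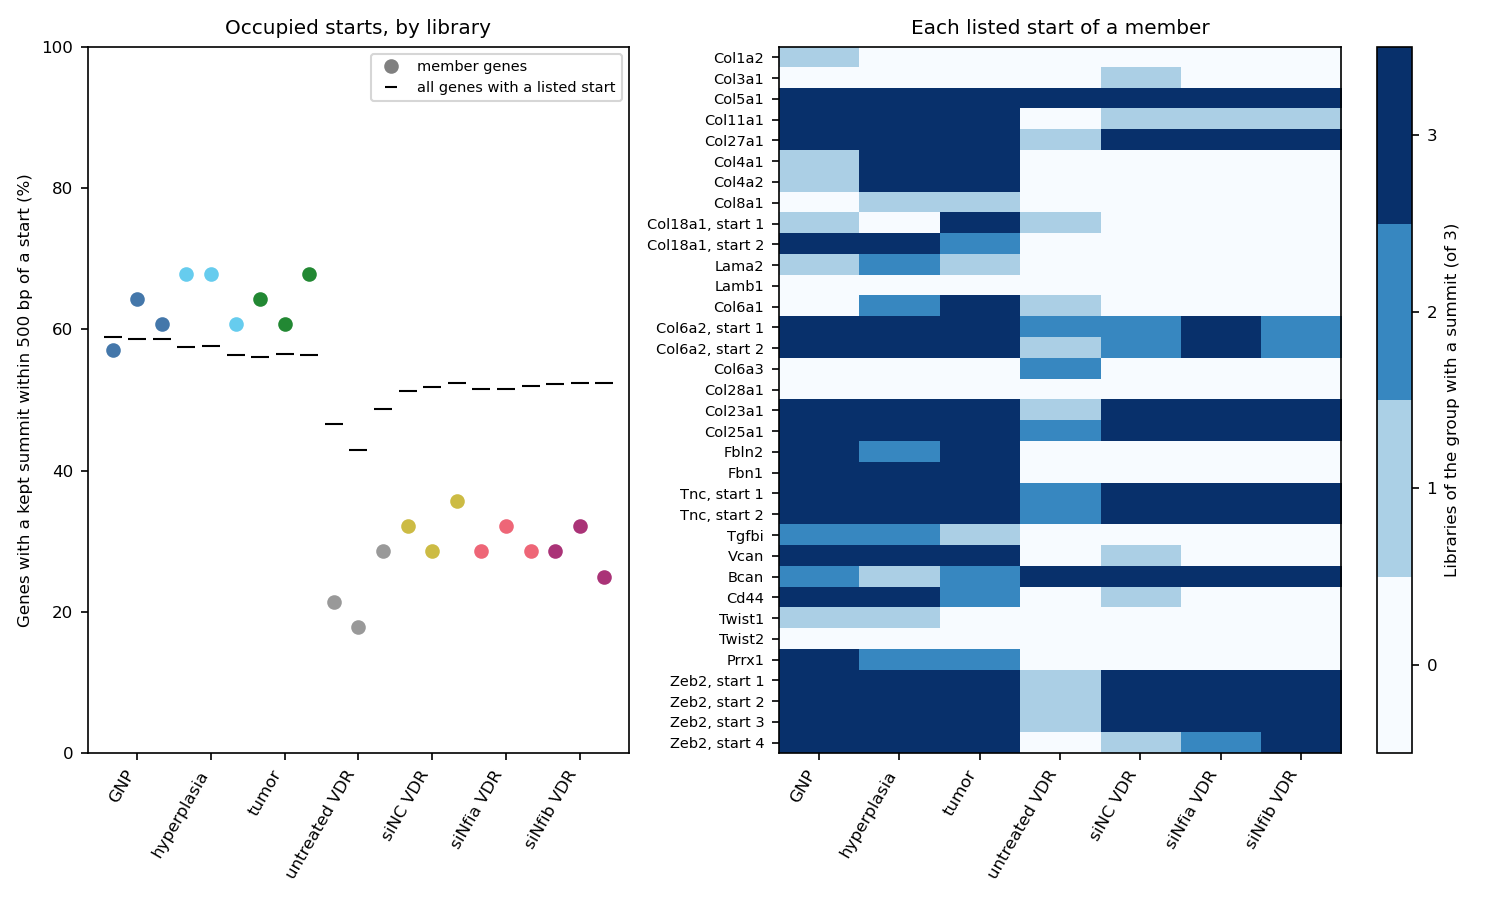
Left, the percent of genes with a kept summit within 500 bp of a listed start in each library, with points for the 28 members that have one and dashes for all such genes. Right, the number of libraries of each group with a summit at each listed start of a member; the VDR columns are pale for Fbn1, Vcan, Col4a1 and Col4a2 and dark for Col5a1 and Bcan.

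Of the 12 genes whose start was occupied in 21 of 21 libraries, or in 3 of 3 libraries of a group and 0 of 3 of another, the sequence before the start is shown for 7, to set the start occupied throughout beside those that were not. For the other 5, Vcan, Col4a1, Col4a2, Fbln2 and Prrx1, the bases before the start lie inside an annotated gene and are not printed. The stretches come from RefSeq on GRCm38.p6, the mm10 assembly, run 5′ to 3′ on the gene's strand toward the start and stop where an annotated gene begins. Capitals mark GC boxes, GGGCGG or its reverse CCGCCC, and the half-site of NFI proteins, TTGGC or its reverse GCCAA. Col5a1 (chr2:27886175-27886380, plus strand) is the start occupied in all 21 libraries. Col11a1 (chr3:114030290-114030478, plus strand), Zeb2 (chr2:45117443-45117692, minus strand), Cd44 (chr2:102901670-102901915, minus strand), Fbn1 (chr2:125506486-125506688, minus strand), Col18a1 (chr10:77166531-77166780, minus strand) and Col6a1 (chr10:76726045-76726294, minus strand) were occupied in some groups and not in others.
Col5a1: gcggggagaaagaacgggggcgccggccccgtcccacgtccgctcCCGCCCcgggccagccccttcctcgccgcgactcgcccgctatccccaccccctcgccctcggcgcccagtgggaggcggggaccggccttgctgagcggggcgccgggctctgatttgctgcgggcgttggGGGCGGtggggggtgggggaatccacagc
Col11a1: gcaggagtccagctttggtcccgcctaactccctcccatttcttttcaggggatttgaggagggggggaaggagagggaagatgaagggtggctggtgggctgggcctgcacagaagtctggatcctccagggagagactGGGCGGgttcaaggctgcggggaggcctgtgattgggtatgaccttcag
Zeb2: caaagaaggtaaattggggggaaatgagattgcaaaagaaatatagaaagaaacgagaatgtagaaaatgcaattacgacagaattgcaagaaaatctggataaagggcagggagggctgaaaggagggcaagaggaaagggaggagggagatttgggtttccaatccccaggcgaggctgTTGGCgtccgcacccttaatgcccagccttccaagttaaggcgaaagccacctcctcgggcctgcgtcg
Cd44: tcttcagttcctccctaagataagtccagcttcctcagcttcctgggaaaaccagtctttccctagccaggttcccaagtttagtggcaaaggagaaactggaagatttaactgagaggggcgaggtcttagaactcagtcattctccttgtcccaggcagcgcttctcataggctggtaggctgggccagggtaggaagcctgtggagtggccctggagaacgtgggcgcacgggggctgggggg
Fbn1: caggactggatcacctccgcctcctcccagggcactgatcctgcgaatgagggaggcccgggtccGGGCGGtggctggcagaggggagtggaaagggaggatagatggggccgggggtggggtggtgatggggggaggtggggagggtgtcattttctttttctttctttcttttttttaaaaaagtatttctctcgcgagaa
Col18a1: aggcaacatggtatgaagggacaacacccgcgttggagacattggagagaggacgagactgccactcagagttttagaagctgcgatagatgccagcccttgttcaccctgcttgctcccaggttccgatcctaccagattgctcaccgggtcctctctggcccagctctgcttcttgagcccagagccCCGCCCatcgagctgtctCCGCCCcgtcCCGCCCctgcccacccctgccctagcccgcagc
Col6a1: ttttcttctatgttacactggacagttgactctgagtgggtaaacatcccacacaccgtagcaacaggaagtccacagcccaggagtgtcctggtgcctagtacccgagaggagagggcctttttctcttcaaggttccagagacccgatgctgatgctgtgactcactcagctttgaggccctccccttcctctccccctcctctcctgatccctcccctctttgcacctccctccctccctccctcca

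The stretch before Col5a1 has a G and C content of 77.7%, the highest of the 7, and the others lie between 49.6% and 62.0%. Over the 250 bases before all 34 listed starts of the set the median was 59.4%, against 52.4% over 32851 starts of all genes. Each motif was searched on both strands in these 250 bases. A GC box, the site of SP-type factors, stood before 24 of the 34 starts, or 70.6%, against 32.7% of all starts. The NFI half-site stood before 16, or 47.1%, against 41.5%. CAGGTG, the E-box of the SNAI and ZEB type, stood before 1, or 2.94%, against 17.2%. TGGGTGGTC, the site of the GLI factors of Hedgehog signalling, stood before none, against 0.225%. TATAAA stood before 4, or 11.8%, against 12.4%. The 34 starts belong to 28 genes, and several starts of Zeb2, Tnc, Col6a2 and Col18a1, and the adjoining starts of Col4a1 and Col4a2, are not independent of each other.

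From GNP to hyperplasia, 4 of the 31 genes with a mean of at least 3 summits over the 9 primary libraries passed the test, 2 in each direction. The other 9 fell under that mean: Col1a2, Col3a1, Col5a2, Col6a2, Lum, Dcn, Twist1, Twist2 and Snai2. The test was limma on log2(summits + 1), with p-values adjusted over all 14112 genes tested, and a gene was called at an adjusted p below 0.05. The background was 2.18% of all genes called higher and 2.33% called lower. The median log2 change was 0.09 over the 31 genes and -0.02 over all genes tested. The genes called higher were Lama1 and Col28a1, and those called lower were Col18a1 and Fbln2.

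Col18a1 had 20, 19 and 19 summits in GNP and 9, 12 and 9 in hyperplasia. The groups did not overlap, and the locus fell by 0.90 on the log2 scale (SE 0.12, adjusted p = 0.00700). It held in each of the 6 fits that left out 1 library. Lama1, the laminin alpha chain of early basement membranes, had 6, 5 and 4 summits in GNP and 11, 12 and 8 in hyperplasia, every hyperplasia value above every GNP value. Its log2 change was 0.91 (SE 0.18, adjusted p = 0.0281). Col28a1, a collagen of nerve basement membranes, had 6, 4 and 5 against 13, 12 and 10, also without overlap, a log2 change of 1.08 (SE 0.19, adjusted p = 0.0172). Fbln2, a fibulin that links elastic fibres and basement membranes, had 28, 30 and 25 against 18, 20 and 20, and fell by 0.49 (SE 0.10, adjusted p = 0.0313).

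The same loci were then set against their surroundings, as log2 of the locus minus log2 of the summits in the 5 nearest genes on each side whose windows do not overlap it. On that scale 5.96% of all genes were called in either direction, and 6 of the set. Col18a1 (log2 change -0.62), Lama1 (0.90) and Col28a1 (0.81) stayed called, and Fbln2 did not (-0.29, adjusted p = 0.215). Its 10 neighbours had 83 to 93 summits in GNP and 75 to 81 in hyperplasia. Col6a1, Col23a1 and Col11a1 were called on that scale alone, with 0.94, 0.58 and -0.61. Their neighbours had means of 50.3, 36.3 and 17.7 in GNP and 34.3, 27.3 and 19.7 in hyperplasia. Leaving out a library ended 3 of the 4 calls: Fbln2 without any of the 6, Lama1 without any but hyperplasia replicate 3, and Col28a1 without hyperplasia replicates 1 and 2 and GNP replicates 2 and 3, with adjusted p up to 0.120.

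Between GNP and hyperplasia 18 of 1002 merged regions of 500 bp at these loci were gained (3 of 3 libraries occupied against 0 of 3), or 1.80% against 1.82% of all 271215 regions. Lost regions numbered 12, or 1.20% against 1.71%. Both shares are near the background. The highest-ranked gains lay inside Lamb1 (chr12:31294484-31294983) and Zeb2 (chr2:44999850-45000349), and both regions were also occupied in 3 of 3 tumor libraries. Lamb1 codes for the laminin beta chain that pairs with the Lama1 product. The second loss lay inside Col18a1 (chr10:77151106-77151605), 15174 bp from a listed start, and was occupied in 3 of 3 GNP libraries, in 0 of 6 hyperplasia and tumor libraries and in 12 of 12 VDR libraries. Nearly all gained and lost regions held a weaker summit in the other group's whole lists, all but 1 of the 30.

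Between hyperplasia and tumor only Fbln2 passed the test, 1 of 31 genes, where 0.12% of all genes were called higher and 0.0779% lower. Fbln2 had 18, 20 and 20 summits in hyperplasia and 39, 35 and 31 in tumor, with no overlap and a log2 change of 0.82 (SE 0.10, adjusted p = 0.0226). Its neighbours also had more, 75 to 81 against 99 to 114, and over them the change was 0.36 (adjusted p = 0.200), with 0.992% of all genes called. The call ended without tumor replicate 2 or any of the hyperplasia libraries, with adjusted p up to 0.112. At an unadjusted p under 0.05 stood 8 genes of the set and 2366 of 14112 genes. The median change was -0.01 in both the set and all genes.

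Of 12 gained regions at these loci, 6 lay at Fbln2, and the highest-ranked is inside the gene at chr6:91260334-91260833. The 12 gained and 6 lost regions are 1.20% and 0.599% of the 1002, against 0.709% and 0.781% of all regions. A further gained region lay 837 bp from the Fbln2 start, at chr6:91213351-91213850, and was occupied in 3 of 3 GNP, 0 of 3 hyperplasia and 3 of 3 tumor libraries. At the first of these regions GNP had 0 of 3. Among kept summits, Fbln2 thus had GNP regions back in tumor cells as well as regions that GNP lacked. Absence here means below the kept ranks: only 1 of the 12 gained regions of the set held no summit in the whole hyperplasia lists.

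Between GNP and tumor 6 of 31 genes passed the test, 5 higher and 1 lower, with 3.08% of all genes called higher and 3.55% lower. This comparison shares its GNP libraries with the first and its tumor libraries with the second, so its calls are not separate evidence. Lama1 had 12, 9 and 12 summits in tumor against 6, 5 and 4 in GNP (log2 change 1.00, SE 0.18), and Col28a1 11, 13 and 8 against 6, 4 and 5 (0.95, SE 0.19). Col6a1, a chain of the beaded filaments around many cells, had 6 in each tumor library and 3 in each GNP library (0.81, SE 0.16). Lama2, the laminin chain of muscle and vessels, had 13, 9 and 11 against 8, 7 and 6 (0.58, SE 0.15). Col4a2, a chain of the type IV network, had 23, 23 and 20 against 16, 16 and 13 (0.53, SE 0.10). Col18a1 had 13, 11 and 13 against 20, 19 and 19 and fell by 0.61 (SE 0.12).

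None of these 6 pairs of groups overlapped, nor did those of 10 of the 31 genes tested and of 2920 of all 14112. Adjusted p ran from 0.0184 for Lama1 to 0.0479 for Lama2. Over their neighbours Lama1, Col6a1, Col4a2 and Col18a1 stayed called (0.96, 1.10, 0.61 and -0.50), while Col28a1 (0.46, adjusted p = 0.147) and Lama2 (0.54, adjusted p = 0.0618) did not, where 7.16% of all genes were called. Each of the 6 calls ended in at least 4 of the 6 fits without a library, with adjusted p up to 0.151, and each of the 6 libraries decides at least 4 of them. Col6a1 was -0.10 when the whole lists were counted. Gained regions numbered 23, or 2.30% against 1.76% of all regions, and lost regions 8, or 0.798% against 1.62%. Only 3 of the 23 gained regions held no summit in the whole GNP lists.

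The common start region of Col4a1 and Col4a2 differed among the primary groups. These genes are transcribed away from each other from adjoining starts, and their products twist into the main type IV collagen of basement membranes. Within 500 bp of the start of Col4a2 the GNP libraries held 0, 1 and 0 kept summits, the hyperplasia libraries 2, 3 and 2 and the tumor libraries 2, 2 and 3. The 12 VDR libraries held 0. In the whole lists 3 of 3 GNP libraries had a summit there, among them the 1 with a kept summit, and 0 of 12 VDR libraries had any. The start was thus weakly open in GNP and had no summit in the line. The count over the Col4a1 locus was 7, 7 and 5 in GNP, 7, 11 and 10 in hyperplasia and 13, 12 and 7 in tumor, which overlap, and Col4a1 was not called in the primary comparisons.

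**Figure D3:**
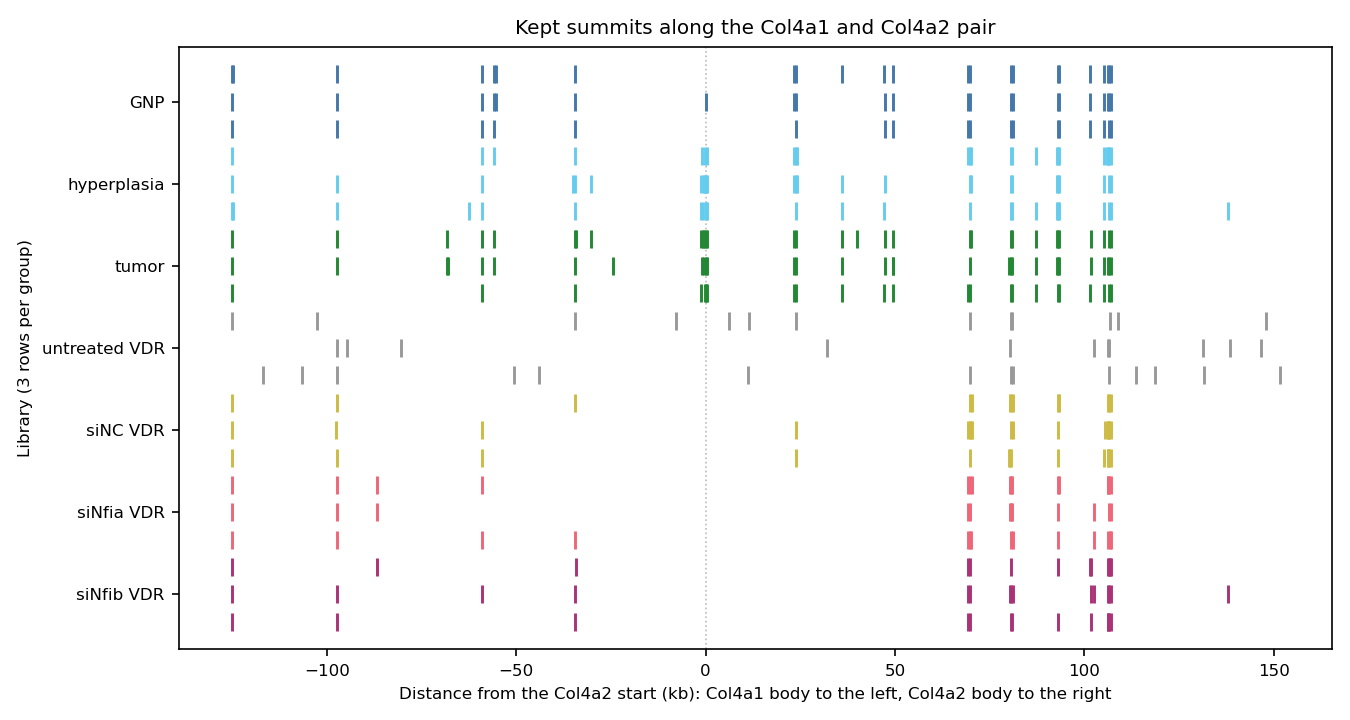
Ticks are kept summits along Col4a1 and Col4a2, 1 row per library, placed by distance in kb from the Col4a2 start. Summits at 0 kb appear in hyperplasia and tumor libraries, in 1 GNP library and in no VDR library, while those near 80.6 and 107 kb are present in all 21 libraries.

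In the VDR line treated with siNC 6 of 29 genes tested were called higher than in tumor and 11 lower, or 58.6%. Among all 13923 genes tested 21.1% were called higher and 13.3% lower. The median log2 change was -0.33 over the 29 genes and 0.11 over all genes. Of the 17 genes called, 4 had a mean under 3 in one group and passed the filter through the other, where they are high: Col11a1, Col6a1, Fbn1 and Tnc. The filter favours a difference at such genes, so their values are a description and the count of 17 is not support. Basement membrane genes were lower throughout their calls, 4 of 4, and the fibrillar collagens were split, with 2 higher and 1 lower. The 4 are not separate loci, since the windows of Col4a1 and Col4a2 overlap. Their shared stretch held kept summits in each tumor library and in no siNC library, which lowers both counts.

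Of the basement membrane genes, Col4a1 had 13, 12 and 7 summits in tumor and 3 in each siNC library, a log2 change of -1.50 (SE 0.22, adjusted p = 0.00387). Col4a2 had 23, 23 and 20 against 10, 13 and 11 (-0.90, SE 0.12). Both pairs of groups were apart, as were those of Lama1 (12, 9 and 12 against 8, 4 and 6; -0.81, SE 0.23) and Lama2 (13, 9 and 11 against 5, 6 and 7; -0.77, SE 0.17). The groups were apart at 19 of the 29 genes tested and at 5836 of all 13923. Untreated VDR cells, set beside them, had 6, 3 and 6 at Col4a1, 10, 8 and 9 at Col4a2, 2, 5 and 8 at Lama1 and 3, 2 and 2 at Lama2. All 4 genes were called lower there too, in a comparison that shares the tumor libraries. Lama2 passed the filter there only through tumor, and over neighbours it alone of the 4 stayed called.

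Col11a1 had 8, 6 and 6 summits in tumor and 0, 0 and 1 with siNC, and passed the filter only through tumor. Untreated VDR cells had none. Col27a1 was higher, with 38, 40 and 41 against 64, 70 and 60 (0.69, SE 0.08), and so was Col5a1, with 16, 17 and 14 against 20, 23 and 22 (0.45, SE 0.11). Col27a1 held 9 of the 36 merged regions of the set that were occupied in 21 of 21 libraries, the most of any gene, and 8 of the 22 regions gained by siNC cells. Some collagens of fibroblasts stayed near 0 in all groups: Col1a2 had 0 to 4 summits a library, Col3a1 0 to 2 and Col5a2 0 to 2. None of them passed the filter of the tests. Others did not stay near 0, with 4 to 13 at Col1a1 and 12 to 27 at Col5a1. Col2a1 had 5 to 23. The windows of Col1a1 and Col2a1 hold 2 and 1 other coding genes. A region inside Col1a1 (chr11:94936828-94937327) was occupied in 21 of 21 libraries. Col8a1, a short-chain collagen of vessel walls and cornea, had 0 summits in each untreated VDR library and 1 to 5 in every other library.

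Of the filament and transmembrane collagens, Col6a1 had 6 in each tumor library and 2 in each siNC library (-1.22, SE 0.12). Col25a1, a collagen of neuronal membranes, had 10, 13 and 10 against 6, 6 and 7 (-0.70, SE 0.14). Col6a3, the largest chain of type VI collagen, was higher, with 9 in each tumor library and 16, 17 and 13 with siNC (0.70, SE 0.12). Type VI collagen is assembled from the products of both Col6a1 and Col6a3, and their loci moved in opposite directions here. Col23a1, the gene of the class with the most summits, had 22, 20 and 27 against 16, 21 and 12 and was not called (-0.49, adjusted p = 0.108), though 6 of its regions were lost.

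Matrix glycoproteins and proteoglycans were split as well. Fbn1 had 6 in each tumor library and 2, 3 and 3 with siNC (-0.95, SE 0.16), and Vcan 10, 8 and 11 against 4 in each (-1.08, SE 0.14). Tnc, tenascin-C, a glycoprotein of neural progenitors and wounds, had 3, 3 and 2 against 5, 6 and 6 (0.87, SE 0.17). Bcan had 12, 12 and 11 against 19, 21 and 21 (0.75, SE 0.09), and its window holds 2 other coding genes. Brevican and versican belong to the same family of hyaluronan-binding proteoglycans, and their loci moved in opposite directions. Lum and Dcn, the small proteoglycans of collagen fibres, had 0 to 4 and 0 to 1 over the 21 libraries. Cd44 had 6, 2 and 4 in tumor and 0, 0 and 1 with siNC, too few for the test. Thy1, the surface marker of neurons and fibroblasts, had 6, 5 and 4 against 5 in each and was not called.

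Of the transcription factors Twist1 had 0 to 3 and Snai2 0 to 4 in all 21 libraries. Zeb1 had 11, 13 and 14 against 2, 6 and 6 (-1.37, SE 0.34) and Zeb2 26, 26 and 25 against 13, 14 and 18 (-0.75, SE 0.13). Prrx1 was higher, with 9, 5 and 5 against 14, 16 and 15 (1.17, SE 0.21). The Prrx1 start was nevertheless occupied in 7 of 9 primary libraries and in 0 of 12 VDR libraries, so its added summits lay elsewhere in the locus. Inside the gene, the region chr1:163252330-163252829, 61070 bp from the start, was occupied in 21 of 21 libraries. The best-ranked kept summit of the Prrx1 locus stood at a median rank of 22757 in tumor and 743 with siNC.

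Set against neighbouring genes, 4 of the 29 genes tested were called higher and 14 lower, where 29.6% of all genes were called in either direction. Of the 17 calls 14 stayed, but these genes were already called on the same libraries, so that count is not support. The 14 include Col11a1, Col6a1 and Fbn1, which passed the filter only through tumor. Tnc (0.00, adjusted p = 0.994), Prrx1 (0.26, adjusted p = 0.419) and Col27a1 (0.38, adjusted p = 0.0758) were not called there. The neighbours of Tnc had 55 to 66 summits in tumor and 102 to 113 with siNC, so that the locus rose in step with its surroundings. Fn1, Fbln2, Col12a1 and Tgfbi were called over neighbours alone, with -1.03, -0.84, -0.71 and 0.73. The means of the 4 loci were 3.33, 35, 5 and 7 in tumor and 2.67, 27.7, 3 and 5.33 with siNC. Those of their neighbours were 55, 107, 40.7 and 62 in tumor and 99.3, 153, 44.3 and 29 with siNC. The Tgfbi locus itself thus had fewer summits with siNC, and its neighbours fell further. Leaving out 1 library kept 13 of the 17 calls in every fit and ended the other 4, with adjusted p up to 0.137. These were Col5a1 (siNC replicates 2 and 3, tumor replicates 1 and 3), Lama1 (siNC replicates 2 and 3 and every tumor library), Lama2 (siNC replicates 1 and 2, tumor replicates 1 and 3) and Zeb1 (siNC replicate 2 and every tumor library). At a score of at least 10 the changes of Col5a1, Col6a3 and Bcan turned to -0.47, -0.069 and -0.34, with the median of all genes at -0.58, Col5a1 was -0.15 in the whole lists, and Col25a1 was 0.23 among the 50000 highest summits.

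**Figure D4:**
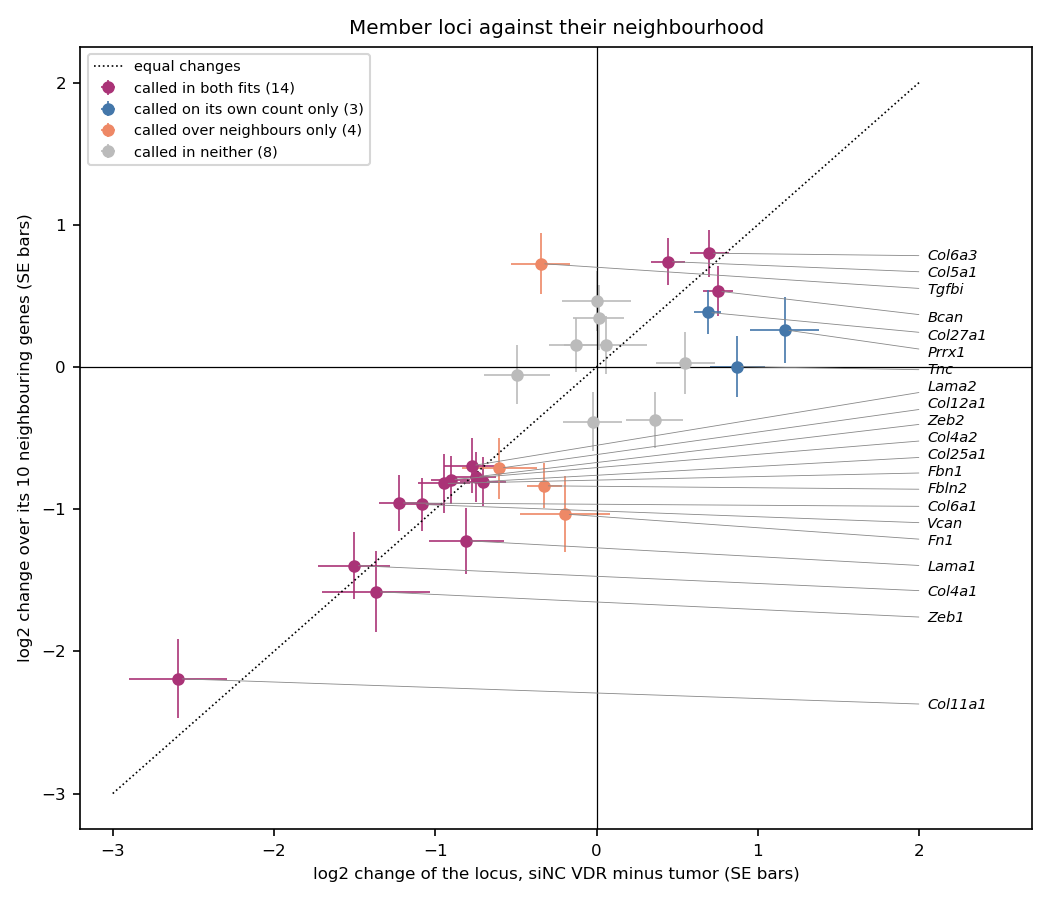
Points are the 29 tested genes, with the log2 change from tumor to siNC-treated VDR cells on the horizontal axis and that change relative to the 10 neighbouring genes on the vertical axis; bars are SE. The 11 genes called lower on their own count were also lower relative to their neighbours, while Tnc and Prrx1 lie well to its right.

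At these loci siNC cells lost 49 regions relative to tumor, or 4.89% of 1002 against 4.64% of all regions, and gained 22, or 2.20% against 2.01%. The shares are near the background, and 31 of the 49 lost regions held no summit at all in the whole siNC lists. The highest-ranked losses lay inside Col23a1 (chr11:51459394-51459893) and inside Lamb1 (chr12:31294484-31294983 and chr12:31302663-31303162). The Col23a1 region and the second Lamb1 region were occupied in 9 of 9 primary and 0 of 12 VDR libraries. The first Lamb1 region was the top gain from GNP to hyperplasia, and was occupied in 1 of 12 VDR libraries.

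**Figure D5:**
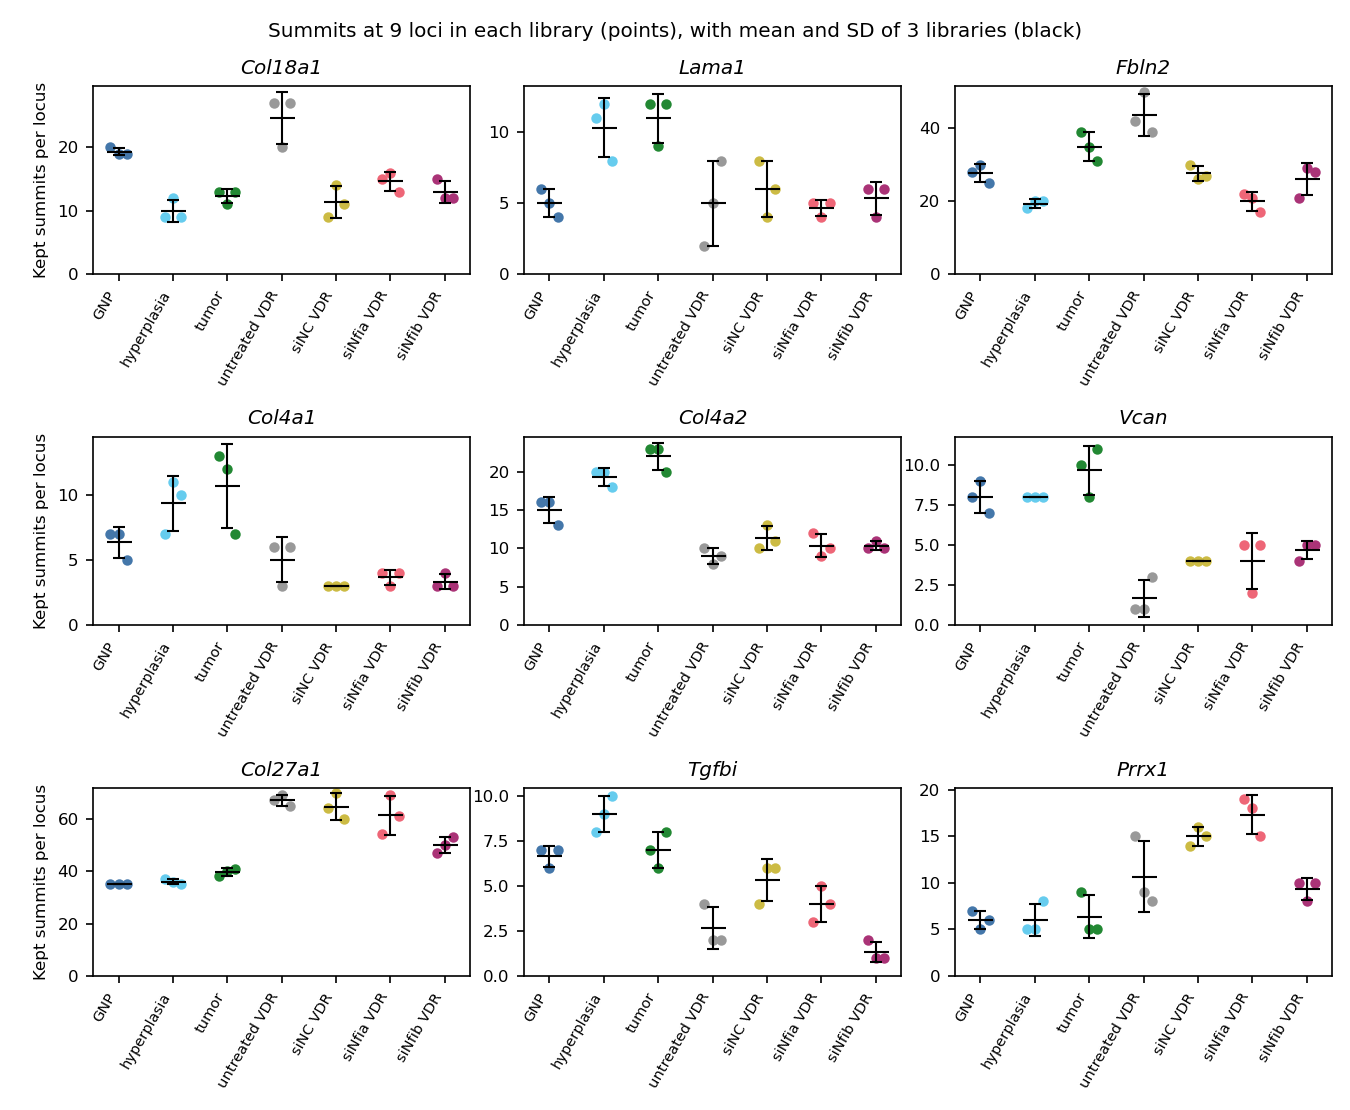
Points are kept summits per locus in each library of the 7 groups, with the mean and SD of 3 libraries in black; each vertical axis starts at 0. Col4a1, Col4a2 and Vcan are lower in the line than in tumor, Col27a1 is higher, the means of Lama1 are highest in hyperplasia and tumor, and the mean of Tgfbi is lowest with siNfib.

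Untreated VDR cells gave 9 genes called higher and 11 lower than tumor among 29 tested, with 19.4% and 24.7% of all 13489 genes. Over neighbours 10 genes of the set were called, 8 of them among the 20, where 18.2% of all genes were. The 8 are Col5a1, Twist2 and Col6a2, called higher, and Zeb2, Zeb1, Col11a1, Lama2 and Vcan, called lower. Lamb1 (1.13) and Fbln2 (-0.72) were called over neighbours alone. The Lamb1 locus had means of 3 in tumor and 3.33 in VDR cells, and its neighbours 31 and 15. The Fbln2 locus itself had more summits in VDR cells, 43.7 against 35, and its neighbours 219 against 107. Zeb1 had 0, 3 and 1 summits against 11, 13 and 14 in tumor, and Zeb2 4, 0 and 7 against 26, 26 and 25. Twist2, a mesenchymal regulator of skin and skull, had 16, 16 and 12 against 1 in each tumor library, and its neighbours had 134 to 170 against 60 to 69. It passed the filter only through untreated VDR cells. In all, 9 of the 20 genes called had a mean under 3 in one group: Col11a1, Lama2, Fbn1, Tgfbi, Vcan and Zeb1 in VDR cells and Col6a2, Tnc and Twist2 in tumor. The same limit holds for their calls and for the count of 20. Neither siNC (1, 3 and 1) nor the other treated VDR groups reached that level at Twist2.

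Of the 9 called higher, Col2a1, Col5a1, Col27a1, Col18a1, Lamc1 and Col6a3 turned negative at a score of at least 10, from -1.52 to -4.07, a setting that moves the median of all genes to -2.26. In the whole lists Col18a1 and Lamc1 were -0.32 and -0.13, and over neighbours Col6a3 was -0.40. Leaving out a library ended 6 of the 20 calls in at least 1 fit: Col4a1 and Lama1 in 5 fits each, Zeb2 without tumor replicate 1 or 3, and Col5a1, Tnc and Tgfbi without tumor replicate 3, with adjusted p up to 0.152. Regions lost numbered 70, or 6.99% against 6.71% of all regions, and 57 of them held no summit in the whole untreated lists. Regions gained numbered 5, or 0.499% against 0.838%. The highest-ranked loss covers the Col11a1 start (chr3:114030193-114030692), the next lies inside Col4a2 (chr8:11405738-11406237), 93183 bp from its start.

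Between siNC and untreated VDR cells 2 of 26 genes were called higher and 7 lower, with 20.9% and 12.2% of all 13176 genes. These groups differ in handling and in the strength of their lists, which cannot be told apart. Twist2 had 16, 16 and 12 in untreated cells and 1, 3 and 1 with siNC, and passed the filter only through the former, as Col6a1 and Col6a2 did, and Lama2 only through siNC. Col18a1 fell from 27, 20 and 27 to 9, 14 and 11 (-1.06, SE 0.20), and Zeb2 was higher at 13, 14 and 18 against 4, 0 and 7 (2.21, SE 0.62). Over neighbours Twist2 and Col6a2 stayed called, 8.79% of all genes were, and Col6a3 turned from -0.50 to 1.20. At a score of at least 10 the changes of Col2a1, Col18a1, Col6a3 and Fbln2 turned positive, from 1.52 to 2.56, with the median of all genes at 1.57. Leaving out a library ended 6 of the 9 calls in at least 2 fits, with adjusted p up to 0.137. Gained regions were 22, or 2.20% against 2.66% of all regions, and lost regions 4, or 0.399% against 0.495%.

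With siNfia none of the 28 genes tested was called against siNC, and limma called 0.0% of all 13542 genes higher and 0.0% lower, as it did over neighbours (0.0%). At an unadjusted p under 0.05 stood 4 genes of the set and 1509 of all genes. Fbln2 had 22, 21 and 17 summits with siNfia and 30, 26 and 27 with siNC, which do not overlap (-0.45, SE 0.14, adjusted p = 0.277). Zeb1 had 8, 8 and 7 against 2, 6 and 6, a log2 change of 0.71 (SE 0.31, adjusted p = 0.410). Gained and lost regions were 3 each, or 0.299%, against 0.405% and 0.357% of all regions. The highest-ranked loss lay inside Fbn1 (chr2:125496699-125497198), 9489 bp from its start. It was occupied in 9 of 9 primary and 3 of 3 siNC libraries and in none of the 9 untreated, siNfia and siNfib libraries.

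With siNfib Tgfbi and Prrx1 were called lower than with siNC, 2 of 28 genes and none higher, where 0.354% of all genes were called higher and 0.583% lower. Tgfbi, whose siNfib mean is under 3 and which passed the filter through the other treated groups, codes for a collagen-binding glycoprotein induced by TGF-beta. It had 4, 6 and 6 summits with siNC, 3, 5 and 4 with siNfia and 2, 1 and 1 with siNfib. The siNfib values lay below all others of the treated groups, and the log2 change from siNC was -1.45 (SE 0.25, adjusted p = 0.0170). Prrx1 had 14, 16 and 15 with siNC, 19, 18 and 15 with siNfia and 10, 8 and 10 with siNfib, again without overlap (-0.64, SE 0.14, adjusted p = 0.0438). Against siNfia, a comparison that shares the siNfib libraries, Tgfbi was -1.11 (SE 0.25, adjusted p = 0.0387) and Prrx1 -0.83 (SE 0.14, adjusted p = 0.0105), 2 of 28 genes, where 0.871% of all genes were called higher and 0.775% lower.

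Over neighbours Tgfbi stayed called against siNC (-1.42, adjusted p = 0.0266) and Prrx1 did not (-0.69, adjusted p = 0.0663), with 0.901% of all genes called, and Col6a3 was called there alone (-0.73). Against siNfia neither was, at -0.92 and -0.71, with 0.798% of all genes called. In the whole lists Tgfbi was 0.037 against siNC and 0.080 against siNfia, where weaker summits are counted too. Without a library the Tgfbi call against siNC ended for siNfib replicates 2 and 3 and siNC replicates 2 and 3, and the Prrx1 call against siNfia for replicates 1 and 2 of both groups. The other 2 calls ended in all 6 fits, with adjusted p up to 0.201.

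Regions gained and lost with siNfib against siNC were 7 and 10, or 0.699% and 0.998%, against 1.34% and 0.869% of all regions, and against siNfia 12 and 11, or 1.20% and 1.10%, against 1.4% and 0.949%. A Tgfbi region inside the gene (chr13:56613630-56614129), 4294 bp from its start, was occupied in 9 of 9 primary libraries, 3 of 3 siNC and 3 of 3 siNfia libraries and 0 of 3 siNfib libraries. A region 16471 bp outside Col6a3 (chr1:90750139-90750638) had the same pattern. The Fbln2 region gained from hyperplasia to tumor (chr6:91260334-91260833) was occupied in 3 of 3 siNfia and 0 of 3 siNfib libraries. All 10 regions lost against siNC held a weaker summit somewhere in the whole siNfib lists.

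A further 6 lists of matrix biology were counted beside the set, 107 genes in all: collagen processing enzymes, matrix proteases and inhibitors, matrix receptors, other basement membrane and glycoprotein genes, brain matrix genes and TGF-beta signalling. From GNP to hyperplasia 5 of 95 tested were called higher and 6 lower, where 2.18% and 2.33% of all genes were. From hyperplasia to tumor none was, where 0.12% and 0.0779% of all genes were. Of 16 other basement membrane genes 3 were higher from GNP to hyperplasia and none lower, against the same 2.18% and 2.33%, among them Lama3, a laminin chain of epithelia, with 4 ± 0 summits in GNP and 9 ± 1 in hyperplasia (log2 change 1.00, SE 0.14). Adamts2, which trims procollagen, fell from 20 ± 2.65 to 12.3 ± 1.15 (-0.65, SE 0.11). The receptor gene Ddr2, whose product binds fibrillar collagen, was higher (0.58, SE 0.10), and the integrin genes Itga3 and Itga11 were lower (-0.68 and -0.69).

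From tumor to siNC cells 13 of 92 tested genes of the 6 lists were called higher and 19 lower, where 21.1% and 13.3% of all genes were. The brain matrix genes were split, with 3 called higher and 4 lower and a median log2 change of -0.13. Among those lower, Spock1 and Tnr fell, from 17 ± 1 to 0 in each library and from 22.3 ± 2.52 to 2.67 ± 1.15. Both passed the filter only through tumor. Adamts2 fell from 14 ± 1 to 4.33 ± 1.53, and all 3 called genes of collagen processing were lower. Itga5, a chain of the fibronectin receptor, was higher (1.22, SE 0.23), and Itga11, a chain of a collagen receptor, lower (-1.52, SE 0.23). In TGF-beta signalling the receptor gene Tgfbr1 was higher (1.23, SE 0.18) and Smad3, which carries its signal, lower, at 11 ± 2.65 against 23 ± 5.20 summits. With siNfia and siNfib none of 85 was called against siNC, and Thbs2, a thrombospondin of the matrix, was lower with siNfib than with siNfia (-0.97, SE 0.20).

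Markers of the cells that make much of this matrix were read in the same lists. The 10 fibroblast and meninges markers had 50 to 54 summits in GNP, 55 to 64 in hyperplasia, 59 to 67 in tumor and 21 to 36 in the VDR libraries, with 8 or 9 of the 10 holding a summit in a primary library and 4 to 6 in a VDR library. Tcf21 was at 0 in all 21 libraries, Ogn in 5 of the 7 groups and Osr1 in the 4 VDR groups. Of this list Aldh1a2 was higher in hyperplasia than in GNP (log2 change 1.59, SE 0.26). Its mean was 1.67 in GNP and 6.67 in hyperplasia, so it passed the filter through the later groups. With siNC 4 of 5 tested were lower than in tumor, among them Meox1, Islr and Pdgfra, where 13.3% of all genes were lower. Meox1 had a mean of 1.33 with siNC and 5.33 in tumor and passed the filter only through tumor. The other markers of the list were not tested there, and the count of 4 is a description. The 8 endothelial markers had 43 to 45, 38 to 39 and 36 to 41 summits in the primary groups and 23 to 35 in the VDR groups, and the 7 mural markers 25 to 40 and 25 to 68. Astrocyte, oligodendrocyte and microglial lists spanned 35 to 54, 25 to 52 and 19 to 42. The part of such cells in the differences at the set was not tested. The 12 markers of the granule lineage had 265 to 321 summits in the primary groups, 276 to 324 in the treated VDR groups and 475 to 527 in untreated VDR cells. The last sum rests on 1 gene, Gli2, a transcription factor of Hedgehog signalling, with 397 ± 45.2 summits against 48.3 ± 6.11 in tumor. Of the 12, untreated VDR cells had 7 called lower than tumor and only Gli2 higher, with a median log2 change of -0.87, where 24.7% and 19.4% of all genes were. With siNC 3 of the 12 were called higher than in tumor and 3 lower, the latter Pax6, Neurod1 and Sfrp1, where 21.1% and 13.3% of all genes were. Sfrp1 had a mean of 2 with siNC and 1.33 in untreated VDR cells against 16 in tumor. It passed the filter of both comparisons only through tumor, so the counts of lower genes that include it are a description.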

How the data were processed

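The deposited lists give, for each ATAC-seq library, the summits that the authors called with MACS2 after alignment to mm10 with Bowtie2 and use of Picard, per the submitters' processing notes. The score of a summit is a deposited −log10 value, and the sources used here do not say whether of p or q. The threshold, read shifting and removal of duplicates: not given in the sources used here. It served to rank summits within a list and, in 1 alternative and a description of the lists, as a minimum of 10. The 100000 highest summits of each of 21 lists were counted in the bodies of 21887 RefSeq genes with 20 kb flanks. Counts were tested as log2(summits + 1) with limma 3.58.1 in R 4.3.3 (empirical Bayes with a trend), in 5 fits giving 9 comparisons. A gene needed a mean of at least 3 summits over the libraries of the fit. P-values were adjusted by Benjamini-Hochberg over all genes tested. Regions merge summits within 500 bp and carry no test. The tests were tested on simulated data.

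Members and gene lists were chosen with earlier results of these data known. Named are the called genes (at most 10 in each direction), the gene of each class with the most summits, genes at 0 in a whole group but present throughout another, at most 3 called genes of each other list, and at most 3 gained and 3 lost regions of a comparison, by rank. Alternatives were 50000 summits, whole lists, a score of at least 10, gene bodies alone, 500 bp regions, a pseudocount of 0.5, no filter, a fit of 12 libraries, a neighbour baseline, a replicate block and each library left out. Exons and introns were not annotated.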

Additional observations from a re-analysis of the deposited data

How the results depend on the processing

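Of single-gene calls, a pseudocount of 0.5 kept 61 of 61 on their side of the threshold, gene bodies alone 40 of 49, no filter 54 of 61, 500 bp regions 38 of 58 and a fit of 12 libraries 31 of 42. The 50000 highest summits kept 16 of 38 (1 reversed), whole lists 34 of 61 (6 reversed), a score of at least 10 kept 24 of 52 (13 reversed) and the neighbour baseline 32 of 61 (2 reversed). Leaving out a library kept 234 of 356, ended 122 and reversed 0. The calls from GNP to hyperplasia (4) became 2 with 50000 summits, 0 in whole lists, 1 at a score of at least 10, 1 over 500 bp regions and 2 in a fit of 12 libraries, and 1 to 4 without a library. The call from hyperplasia to tumor (1) became 0 at a score of at least 10 and over neighbours, and 0 to 1 without a library. Those from GNP to tumor (6) became 1 with 50000 summits, 3 in whole lists, 0 at a score of at least 10, 3 for gene bodies, 2 over regions and 0 in the fit of 12, and 0 to 2 without a library. For siNC against tumor (17) they became 8 with 50000 summits and 11 over regions, and 13 to 16 without a library. For untreated VDR against tumor (20) they became 7 and, over neighbours, 10, and 13 to 20 without a library. For siNC against untreated VDR (9) they became 2 with 50000 summits, 14 in whole lists, 14 at a score of at least 10, 3 over neighbours and 14 in the fit of 12, and 3 to 9 without a library. For siNfia against siNC the count was 0 throughout these settings. For siNfib against siNC (2) they became 0 in whole lists, at a score of at least 10, for gene bodies and over regions, 1 without the filter and 1 in the fit of 12, and 0 to 1 without a library. For siNfib against siNfia (2) they became 0 at a score of at least 10, over neighbours and over regions, 1 for gene bodies, without the filter and in the fit of 12, and 0 to 1 without a library. The cause of these moves was not tested. The fit of 12 does not apply to siNC against tumor.

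Reversed changes were, in whole lists, Col6a1 (-0.10, tumor against GNP), Col5a1 (-0.15, siNC against tumor), Col18a1 and Lamc1 (-0.32 and -0.13, untreated VDR against tumor) and Tgfbi (0.037 and 0.080, siNfib against siNC and against siNfia). At a score of at least 10 they were Col5a1, Col6a3 and Bcan (-0.47, -0.069 and -0.34, siNC against tumor), Col2a1, Col5a1, Col27a1, Col18a1, Lamc1 and Col6a3 (-2.58, -4.07, -1.52, -3.50, -2.40 and -1.59, untreated VDR against tumor), and Col2a1, Col18a1, Col6a3 and Fbln2 (1.97, 2.30, 1.52 and 2.56, siNC against untreated VDR). Over neighbours Col6a3 was -0.40 and 1.20 in the last 2 of these comparisons, and with 50000 summits Col25a1 was 0.23 for siNC against tumor.

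Regions gained or lost, when absence was judged in the whole lists, fell from 30 to 1, from 18 to 1, from 31 to 3, from 71 to 34, from 6 to 0, from 17 to 3 and from 23 to 2, leaving out both comparisons between untreated VDR and another group, whose 75 and 26 fell to 42 and 11 with 50000 summits. With 50000 summits siNC against tumor had 47. Without a library, when fewer libraries must be occupied, the 9 counts were 31 to 46, 21 to 26, 34 to 47, 82 to 87, 83 to 109, 34 to 57, 10 to 16, 22 to 30 and 27 to 32, in the order of the report.

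Correlations of deviations between libraries were small, at -0.05 to 0.08 for 27 same-numbered pairs and -0.10 to 0.12 for others. Among the siRNA groups they were -0.00091 to 0.066 for 9 same-numbered pairs and -0.070 to 0.024 for others. These values do not settle whether replicate numbers pair the siRNA libraries. With a replicate block the calls became 2 from GNP to hyperplasia, 0 from hyperplasia to tumor and 1 for siNfib against siNfia, and the other counts stayed within 1.5 times.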
